A study of Mus musculus with 6 samples.

Results

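The genes described here encode the subunits, regulators and assembly factors of the mouse proteasome. They were chosen by name, as every gene whose symbol is Psm followed by a letter from a to g and a number. The rule itself used no measured value, but it was chosen with earlier results of these data known. It gave 48 of the 57180 genes in the count table, of which 47 had enough counts to be tested among 13260 genes. By role they were 8 alpha subunits and 7 constitutive beta subunits of the 20S core, 4 further beta subunits, 6 ATPase and 11 non-ATPase subunits of the 19S cap, 5 activators or inhibitors, and 7 assembly chaperones. The 4 further beta subunits were the inducible Psmb8, Psmb9 and Psmb10, and Psmb11, the subunit of the thymus.

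The proteasome is the barrel-shaped protease that degrades ubiquitin-tagged proteins in the cytosol and nucleus. Its 20S core is a stack of alpha and beta rings with the cutting sites inside the beta rings, and the 19S cap binds ubiquitin chains, unfolds the substrate and feeds it into the core. In macrophages and other immune cells, inducible beta subunits can replace the constitutive catalytic ones to form the immunoproteasome, which is known for producing peptides for display on MHC class I.

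The cells were bone marrow-derived macrophages of wild-type mice aged 6 to 8 weeks, whose RNA was sequenced in bulk. Marrow cells were grown for 7 days in M-CSF at 20 ng/mL, the growth factor that turns them into macrophages. They were then treated for 24 h with CGRP, a sensory nerve peptide, added to IL-4 (the IL-4+CGRP group), or with IL-4 only (the IL-4 group). The IL-4 dose was 20 ng/mL in both groups. There were 3 libraries in each group. All cells received IL-4, so the effect of IL-4 itself was not measured, and the mouse strain is not given in the labels. The labels do not state whether the replicates were separate cultures or mice, so the p-values cover only the spread among these libraries, and that spread may be technical. In bulk RNA, fewer cells expressing a gene and less RNA per cell cannot be told apart.

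Total counts were 21768588 to 23869303 per library in the IL-4+CGRP group and 20088895 to 24060444 in the IL-4 group. The labelled cell type was checked with 7 macrophage markers, all of which were detected, with summed levels of 13800 to 14070 CPM (counts scaled to library size) in IL-4+CGRP libraries and 13600 to 13830 CPM in IL-4 libraries. Markers of neutrophils summed to 20.5 to 30.3 CPM in IL-4+CGRP libraries and 20.7 to 30.4 CPM in IL-4 libraries, and Ly6g was at 0. Other lists differed between the groups without overlap. The 5 dendritic cell markers, led by Ccr7, summed to 29.1 to 30.9 CPM in IL-4+CGRP libraries and 21.7 to 24.7 CPM in IL-4 libraries, and the 4 fibroblast markers to 45.8 to 50.5 CPM in IL-4+CGRP libraries and 40.2 to 43.7 CPM in IL-4 libraries. The 4 T cell markers, mostly Cd4, summed to 80.2 to 84.6 CPM in IL-4+CGRP libraries and 71.1 to 79.5 CPM in IL-4 libraries, and the 3 mast cell markers to 4.04 to 4.87 CPM in IL-4+CGRP libraries and 5.30 to 6.55 CPM in IL-4 libraries. None of these markers was at 0 in all libraries, and their part in the results was not tested. The 3 B cell markers summed to 16.2 to 19.02 CPM in IL-4+CGRP libraries and 18.8 to 19.8 CPM in IL-4 libraries, which overlapped, and the 3 erythroid markers to at most 0.051 CPM in any library, with Hbb-bs at 0. IL-4+CGRP replicate 2 stood apart from its group. Its score on the first principal component was -0.17, where the other IL-4+CGRP libraries scored 21.98 and 27.05 and the IL-4 libraries -25.97 to -11.22. Its log2 CPM also ran the other way with gene length, with a slope of -0.0739 per doubling of length, against 0.0523 and 0.0528 in IL-4+CGRP replicates 1 and 3, and -0.0549, 0.0097 and 0.014 in IL-4 replicates 1, 2 and 3. Most results are therefore given with and without this library, which was singled out from these same data.

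The comparison asks whether adding CGRP to IL-4 changed the proteasome genes. With all 6 libraries, no proteasome gene passed the test: edgeR's quasi-likelihood test called 0 of 47 lower and 0 of 47 higher at an adjusted p under 0.05, where 1.54% and 2.32% of all tested genes were called. At an unadjusted p under 0.05, edgeR counted 13 of 47 lower (7.21% of all genes) and 0 higher (8.61% of all genes). DESeq2 called 1 lower, Psma3 (adjusted p = 0.048; 1.37% of all genes were called lower and 2.1% higher), and limma-voom called 0 in either direction (1.27% lower and 1.98% higher over all genes). With no filter on low counts, edgeR called 5 lower and 0 higher (1.83% and 2.46% of all genes), which were Psma1, Psma4, Psma7, Psmb7 and Psme1. The fold changes were small and mostly of one sign: the log2 fold change was below 0 in 44 of 47 genes, against 50.8% of all genes, with a median of -0.14, against -0.004 over all genes. The 3 genes above 0 were Psmb9, Psme4 and Psmd5. On simulated data of this design, the same test recovered 0% of genes changed 1.1-fold and 42% of those changed 1.3-fold. The absence of calls does therefore not show that genes with changes this small were unchanged.

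The low values belonged to a pair of libraries. Relative to the mean of the IL-4 libraries, the median proteasome gene lay at -0.20, -0.01 and -0.23 on the log2 scale in IL-4+CGRP replicates 1, 2 and 3, and at 0.09, -0.03 and -0.04 in IL-4 replicates 1, 2 and 3. IL-4+CGRP replicates 1 and 3 were thus below every IL-4 library at the median, and replicate 2 was within their range. Gene by gene, IL-4+CGRP replicates 1 and 3 were both below all 3 IL-4 libraries for 39 of 47 genes (23.7% of all genes), and replicate 2 was the highest of its group for 41 of 47 (38.5% of all genes). Replicate 2 was at or above the lowest IL-4 library for 40 of 47 genes (70.8% of all genes). All 3 IL-4+CGRP libraries were below all 3 IL-4 libraries for 7 of 47 genes (9.92% of all genes), namely Psmb7, Psmc6, Psmd1, Psmd8, Psmd11, Psme3 and Psmg2, and above them for 0 of 47 (11.1% of all genes). Summed over the 48 genes, the level was 4079, 4759 and 4003 CPM in IL-4+CGRP replicates 1, 2 and 3, against 4979, 4604 and 4528 CPM in IL-4 replicates 1, 2 and 3.

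**Figure D1:**
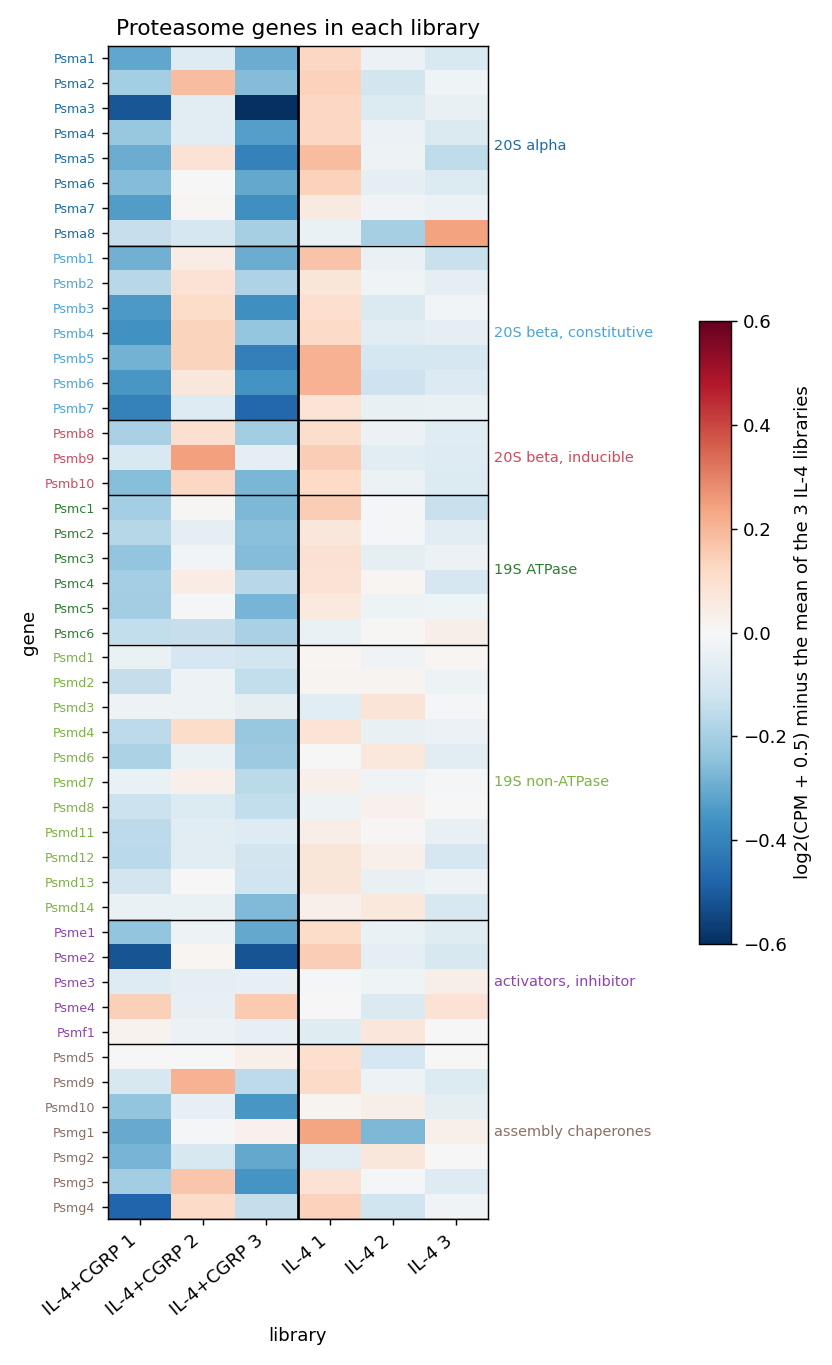
Level of each of the 47 tested proteasome genes in each library, as log2(CPM + 0.5) minus the mean of the 3 IL-4 libraries, with genes grouped by role. IL-4+CGRP replicates 1 and 3 are mostly blue (medians -0.20 and -0.23), and IL-4+CGRP replicate 2 is close to the IL-4 libraries (median -0.01).

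Without IL-4+CGRP replicate 2, edgeR called 25 of 47 genes lower (7.04% of all genes) and 0 higher (6.78%), with a median log2 fold change of -0.24. This library was singled out from these same data for lying towards the IL-4 libraries, so leaving it out favours a larger difference. Over all genes, calls were 950 lower and 915 higher without it, against 204 lower and 307 higher with all 6 libraries. The calls made without it, here and below, are therefore not independent support. The 25 genes were 7 alpha subunits, 5 constitutive beta subunits, 2 inducible beta subunits, 5 ATPases, 3 non-ATPases, 2 activators and 1 assembly chaperone. Leaving out IL-4 replicate 1 in place of that library gave a median of -0.09. When the trend of each library with gene length was removed and all 6 libraries were kept, edgeR called 6 of 47 lower and 0 higher (4.24% and 2.96% of all genes). The 6 were Psma1, Psma4, Psma7, Psmb7, Psmc6 and Psme1, with a median of -0.13 over the 47 genes and -0.03 over all genes. This setting was added after seeing the data, so its calls, here and below, are not independent support. Over all genes it called 562 lower and 393 higher, against 204 lower and 307 higher uncorrected. Without IL-4+CGRP replicate 2 and IL-4 replicate 1, the library it correlated with best (0.9882, against 0.9865 to 0.9877 with the others), 27 were called lower and 1, Psme4, higher (8.88% and 7.97% of all genes). This pair was also chosen after seeing the data.

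**Figure D2:**
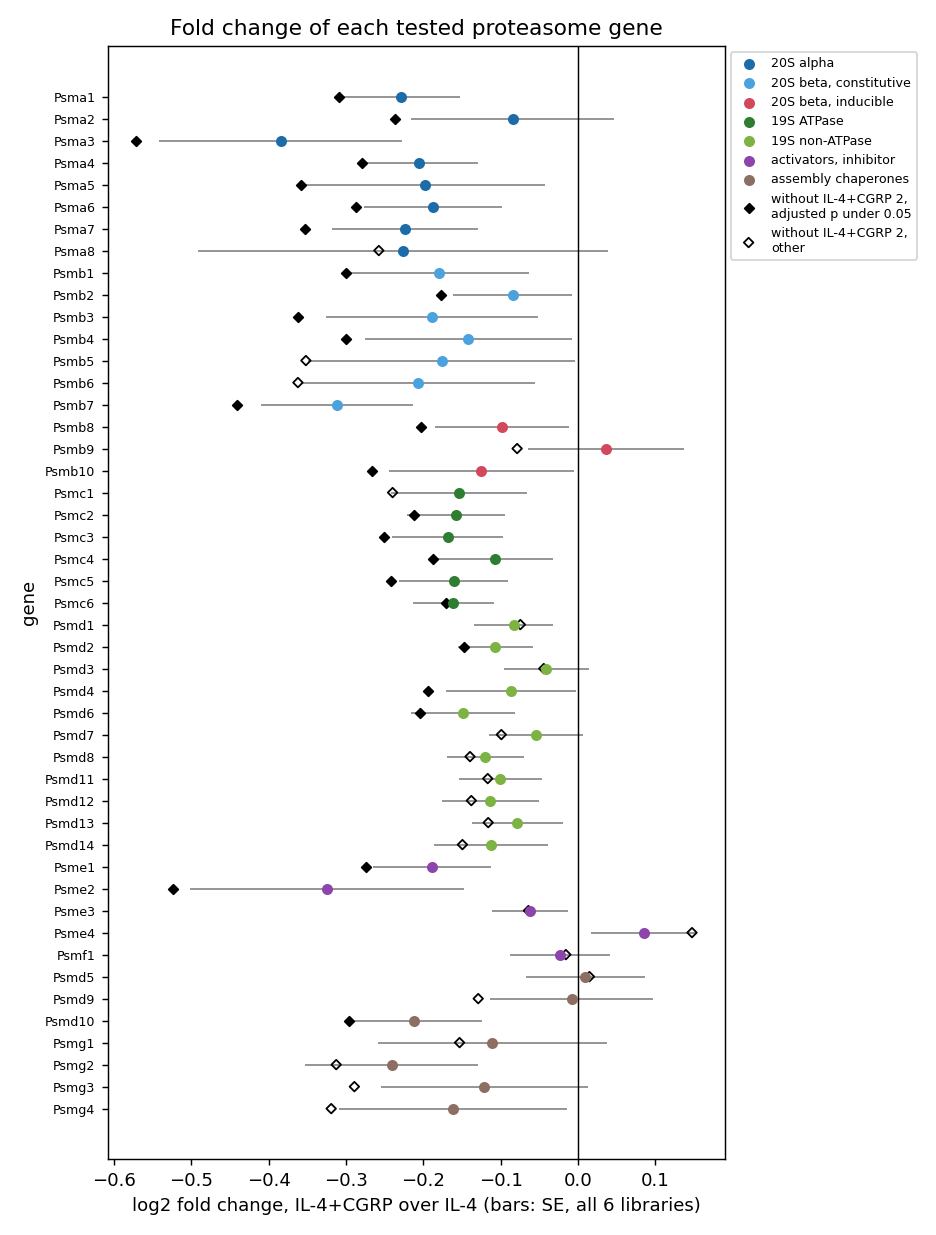
Log2 fold change (IL-4+CGRP over IL-4) of each tested proteasome gene from all 6 libraries, with SE bars, coloured by role, and without IL-4+CGRP replicate 2 as diamonds, filled where the adjusted p is under 0.05. Coloured points lie below 0 for 44 of 47 genes, and 25 diamonds are filled.

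The alpha subunits form the outer rings of the core and its gate. All 8 had a log2 fold change below 0, with a median of -0.21. Their summed level was 474.7, 589.8 and 455.4 CPM in IL-4+CGRP replicates 1, 2 and 3, against 638.0, 563.1 and 556.1 CPM in IL-4 replicates 1, 2 and 3. Psma3 was the furthest below, with 49.0, 67.1 and 45.5 CPM in IL-4+CGRP replicates 1, 2 and 3, against 76.5, 66.3 and 68.1 CPM in IL-4 replicates 1, 2 and 3. Replicates 1 and 3 of IL-4+CGRP were below every IL-4 library and replicate 2 was within the IL-4 range. The log2 fold change of Psma3 was -0.38 ± 0.16 (SE; edgeR adjusted p = 0.32), and without IL-4+CGRP replicate 2 it was -0.57 ± 0.07 (edgeR adjusted p = 2.5e-05). Reads of Psma3 may be shared with the gene Gm13835, which matches it at 100% over 665 bases, and the sum of both was 64.4, 82.1 and 62.1 CPM in IL-4+CGRP libraries, against 88.4, 77.0 and 82.7 CPM in IL-4 libraries.

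Psma2 was the nearest to 0 of the alpha subunits, with 79.3, 103.8 and 76.1 CPM in IL-4+CGRP replicates 1, 2 and 3, against 100.5, 84.6 and 89.7 CPM in IL-4 replicates 1, 2 and 3. Its groups overlapped, with replicate 2 of IL-4+CGRP the highest of the 6 libraries, and its log2 fold change was -0.08 ± 0.13 (edgeR adjusted p = 0.81; 0.028 without that library). Psma8, the alpha subunit known from testis, had 24 to 41 counts in any library, a level of 1.13 to 1.24 CPM in IL-4+CGRP libraries and 1.13 to 1.71 CPM in IL-4 libraries, which overlapped.

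The constitutive beta subunits include the 3 catalytic ones, Psmb5 with chymotrypsin-like activity, Psmb6 with caspase-like activity and Psmb7 with trypsin-like activity. All 7 had a log2 fold change below 0, with a median of -0.18. Psmb7 had 49.7, 62.4 and 47.4 CPM in IL-4+CGRP replicates 1, 2 and 3, against 69.9, 63.8 and 64.1 CPM in IL-4 replicates 1, 2 and 3. Each IL-4+CGRP library was below each IL-4 library, replicate 2 by the smallest margin. The log2 fold change of Psmb7 was the furthest from 0 in this role at -0.31 ± 0.10 (edgeR adjusted p = 0.15; 8.1e-05 without IL-4+CGRP replicate 2). With the length trend removed, a setting added after seeing the data, Psmb7 passed at -0.29 ± 0.06 (edgeR adjusted p = 0.0043). Psmb7 shares 255 bases with Nek6 at 100% identity, where reads may be split, and the mean count per library was 1316 for Psmb7 and 1349 for Nek6.

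Psmb5 had 54.1, 72.4 and 49.6 CPM in IL-4+CGRP replicates 1, 2 and 3, against 76.3, 61.3 and 61.5 CPM in IL-4 replicates 1, 2 and 3. Psmb6 had 95.8, 128.1 and 94.97 CPM in IL-4+CGRP replicates 1, 2 and 3, against 140.9, 112.0 and 115.1 CPM in IL-4 replicates 1, 2 and 3. For both genes replicate 2 of IL-4+CGRP lay inside the IL-4 range and the other 2 below it. Their log2 fold changes were -0.18 ± 0.17 for Psmb5 and -0.21 ± 0.15 for Psmb6 (edgeR adjusted p of 0.69 and 0.59), and without replicate 2 they were -0.35 ± 0.11 and -0.36 ± 0.10 (edgeR adjusted p of 0.079 and 0.070). Both passed as lower when IL-4 replicate 1 was left out as well (edgeR adjusted p of 0.0031 and 0.00014). That pair of libraries was chosen after seeing the data, so these calls are not independent support. Psmb2, a non-catalytic subunit, was the nearest to 0 at -0.08 ± 0.08 (edgeR adjusted p = 0.65), and passed without replicate 2 at -0.18 ± 0.06 (edgeR adjusted p = 0.048). It had 51.8, 61.8 and 51.1 CPM in IL-4+CGRP libraries and 61.2, 57.3 and 56.1 CPM in IL-4 libraries, which overlapped.

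The inducible subunits Psmb8, Psmb9 and Psmb10 take the places of Psmb5, Psmb6 and Psmb7 in the immunoproteasome. Psmb8 had 297.4, 363.7 and 295.0 CPM in IL-4+CGRP replicates 1, 2 and 3, against 367.1, 332.8 and 323.7 CPM in IL-4 replicates 1, 2 and 3. Psmb10 had 231.3, 300.9 and 228.0 CPM in IL-4+CGRP replicates 1, 2 and 3, against 299.7, 269.0 and 260.5 CPM in IL-4 replicates 1, 2 and 3. Both followed the pattern of the core, with replicates 1 and 3 of IL-4+CGRP below every IL-4 library and replicate 2 not. Their log2 fold changes were -0.10 ± 0.09 for Psmb8 and -0.13 ± 0.12 for Psmb10 (edgeR adjusted p of 0.65 and 0.68), and both passed as lower without replicate 2, at -0.20 ± 0.05 and -0.27 ± 0.05 (edgeR adjusted p of 0.012 and 0.0043).

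Psmb9 differed in that its groups overlapped without regard to replicate 2. It had 113.5, 143.6 and 116.2 CPM in IL-4+CGRP replicates 1, 2 and 3, against 134.0, 115.5 and 114.7 CPM in IL-4 replicates 1, 2 and 3, with a log2 fold change of 0.04 ± 0.10 (edgeR adjusted p = 0.90). Without IL-4+CGRP replicate 2 its log2 fold change was -0.08 ± 0.06 (edgeR adjusted p = 0.47), so the sign turned. Psmb9 shares 212 bases with the neighbouring Tap1, a subunit of the peptide transporter, where reads may be split. Psmb11, the subunit of the thymus, had 0 counts in all 6 libraries, which allows a level of up to 0.124 to 0.138 CPM in IL-4+CGRP libraries and 0.125 to 0.152 CPM in IL-4 libraries, taking 3 counts per library as the limit and covering counting error only.

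Because each ratio is taken inside a library, the balance of inducible over constitutive catalytic subunits was compared directly. The ratio of Psmb9 to Psmb6 was 1.19, 1.12 and 1.22 in IL-4+CGRP replicates 1, 2 and 3, against 0.951, 1.03 and 0.996 in IL-4 replicates 1, 2 and 3. The ratio of Psmb10 to Psmb7 was 4.66, 4.83 and 4.81 in IL-4+CGRP replicates 1, 2 and 3, against 4.29, 4.21 and 4.06 in IL-4 replicates 1, 2 and 3. In both pairs each IL-4+CGRP library, replicate 2 included, was above each IL-4 library. Of all tested genes taken singly, 11.1% separated in this direction, and the share among ratios of other gene pairs was not counted. Psmb9 shares bases with Tap1 and Psmb7 with Nek6, so split reads may enter both ratios, which was not tested. The log2 differences were 0.25 ± 0.05 (SE) for Psmb9 to Psmb6 and 0.19 ± 0.03 for Psmb10 to Psmb7, and were 0.22 and 0.18 with the length trend removed. A two-sided exact permutation test gave p = 0.1 for each, which is the smallest p that 3 against 3 libraries allow, and 0.15 after adjustment over the 3 pairs, so neither passed.

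The ratio of Psmb8 to Psmb5 was 5.49, 5.02 and 5.95 in IL-4+CGRP replicates 1, 2 and 3, against 4.81, 5.43 and 5.26 in IL-4 replicates 1, 2 and 3. Its groups overlapped, with a log2 difference of 0.08 ± 0.09 (exact permutation p = 0.4, also 0.4 after adjustment). This difference depended on single libraries. Leaving out IL-4+CGRP replicate 2 gave 0.15, and leaving out replicate 3 of that group or IL-4 replicate 1 gave 0.03.

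**Figure D3:**
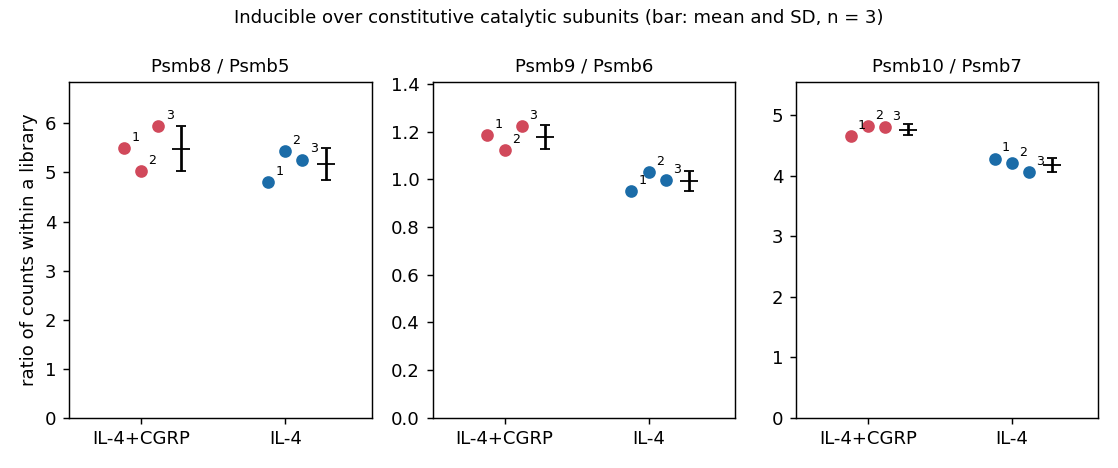
Ratio of counts within each library for the 3 pairs of inducible over constitutive catalytic subunits, with replicate numbers and the mean and SD of 3 libraries. The groups do not overlap for Psmb9 to Psmb6 (1.12 to 1.22 in IL-4+CGRP, 0.951 to 1.03 in IL-4) or for Psmb10 to Psmb7, and overlap for Psmb8 to Psmb5.

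The promoters of 4 of these catalytic genes and of the activator gene Psme1 are shown because each window holds a motif that was searched. The ratios compare the 4 catalytic genes, and Psme1 had the highest level per length. Windows run from 250 bases before to 50 after the start of the gene, 5′ to 3′, from RefSeq on build GRCm38.p6, with the motif in capitals. They lie at chr17:34197945-34198244 (plus strand), chr14:54617946-54618245 (minus strand), chr17:34187281-34187580 (minus strand), chr11:70525107-70525406 (plus strand) and chr14:55578244-55578543 (plus strand).
Psmb8: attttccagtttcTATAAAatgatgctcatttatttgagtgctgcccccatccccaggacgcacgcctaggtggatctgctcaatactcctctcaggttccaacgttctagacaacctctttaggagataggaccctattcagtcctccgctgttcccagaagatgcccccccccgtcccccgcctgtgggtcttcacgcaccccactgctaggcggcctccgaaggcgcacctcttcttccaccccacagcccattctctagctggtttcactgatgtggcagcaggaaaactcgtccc
Psmb5: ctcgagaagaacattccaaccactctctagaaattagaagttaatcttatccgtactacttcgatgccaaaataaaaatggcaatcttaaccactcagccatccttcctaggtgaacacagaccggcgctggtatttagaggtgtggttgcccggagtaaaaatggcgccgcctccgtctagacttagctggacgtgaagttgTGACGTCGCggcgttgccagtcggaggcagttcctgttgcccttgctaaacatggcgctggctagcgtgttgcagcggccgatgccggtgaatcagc
Psmb9: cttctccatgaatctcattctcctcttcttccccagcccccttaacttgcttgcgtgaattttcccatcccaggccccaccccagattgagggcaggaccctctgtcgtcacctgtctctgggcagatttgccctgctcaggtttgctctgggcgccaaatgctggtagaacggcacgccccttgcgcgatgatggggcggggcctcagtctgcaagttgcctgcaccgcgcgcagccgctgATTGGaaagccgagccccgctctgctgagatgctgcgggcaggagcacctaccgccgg
Psmb6: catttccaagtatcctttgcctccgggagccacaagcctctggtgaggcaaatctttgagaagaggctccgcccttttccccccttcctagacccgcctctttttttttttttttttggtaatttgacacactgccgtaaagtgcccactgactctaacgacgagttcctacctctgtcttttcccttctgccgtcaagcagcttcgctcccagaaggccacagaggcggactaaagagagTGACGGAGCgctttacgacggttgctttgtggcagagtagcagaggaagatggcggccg
Psme1: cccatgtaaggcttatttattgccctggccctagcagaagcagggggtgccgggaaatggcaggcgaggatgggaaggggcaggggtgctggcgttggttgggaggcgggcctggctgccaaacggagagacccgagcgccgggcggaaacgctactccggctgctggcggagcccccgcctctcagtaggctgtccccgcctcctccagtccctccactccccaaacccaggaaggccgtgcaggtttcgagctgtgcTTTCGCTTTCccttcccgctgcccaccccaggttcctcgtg
The capitals mark a TATA box (TATAAA) at position -237 of Psmb8, an antioxidant response element core at -47 of Psmb5 and at -9 of Psmb6, a CCAAT box read on the other strand at -8 of Psmb9, and an interferon-stimulated response element core read on the other strand at 10 of Psme1. Positions count from the start of the gene, and a match is a string of letters and not a shown binding site.

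These motifs were searched on both strands in the 40 of 48 genes that had a window. A gene counted if any of its windows matched, with 43 windows for the 40 genes, while the 32851 promoters were counted singly. The shares of the proteasome genes may therefore be slightly raised. The antioxidant response element core, TGACNNNGC or TGAGNNNGC, was in 16 of 40 (40%), against 27.8% of 32851 promoters. The interferon-stimulated response element core, GAAA followed by any 2 bases and a further GAAA, was in 5 of 40 (12.5%), against 3.44% of promoters. CCAAT was in 14 of 40 (35%), against 37.4%, and TATAAA in 4 of 40 (10%), against 13.6%.

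The 6 ATPases form the ring of the 19S cap that unfolds substrates. All 6 had a log2 fold change below 0, within the narrow range of -0.17 to -0.11. Psmc6 had 63.8, 64.2 and 61.8 CPM in IL-4+CGRP replicates 1, 2 and 3, against 68.7, 71.1 and 72.4 CPM in IL-4 replicates 1, 2 and 3. Here replicate 2 of IL-4+CGRP did not stand apart and the groups did not overlap. Its log2 fold change was -0.16 ± 0.05 (edgeR adjusted p = 0.14), and it passed with the length trend removed (-0.17 ± 0.05, edgeR adjusted p = 0.043). The lowest and highest log2 fold changes in this role were those of Psmc3 at -0.17 ± 0.07 and Psmc4 at -0.11 ± 0.07 (edgeR adjusted p of 0.28 and 0.54). Without IL-4+CGRP replicate 2 both passed as lower, Psmc3 at -0.25 ± 0.05 and Psmc4 at -0.19 ± 0.06 (edgeR adjusted p of 0.0040 and 0.046), as did Psmc6 at -0.17 ± 0.05 (edgeR adjusted p = 0.045). Psmc3 had 128.5, 150.1 and 126.7 CPM in IL-4+CGRP libraries and 161.5, 146.2 and 147.8 CPM in IL-4 libraries, which overlapped through replicate 2.

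The 11 non-ATPase subunits include the ubiquitin receptor Psmd4, the deubiquitinase Psmd14 and the scaffold subunits Psmd1 and Psmd2. All 11 had a log2 fold change below 0, with a median of -0.10. Psmd6 was the furthest below at -0.15 ± 0.07 (edgeR adjusted p = 0.31), and passed without IL-4+CGRP replicate 2 at -0.20 ± 0.06 (edgeR adjusted p = 0.031). It had 43.4, 48.2 and 42.6 CPM in IL-4+CGRP libraries and 49.5, 51.8 and 47.4 CPM in IL-4 libraries. Psmd3 was the nearest to 0 at -0.04 ± 0.05 (edgeR adjusted p = 0.77), with 102.3, 102.3 and 100.8 CPM in IL-4+CGRP libraries and 99.8, 110.4 and 104.1 CPM in IL-4 libraries. The groups overlapped for both genes. Psmd3 did not pass without IL-4+CGRP replicate 2, at -0.04 ± 0.05 (edgeR adjusted p = 0.65). Psmd11 may share reads with A730017L22Rik, which matches it at 97.9% over 1501 bases.

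The summed level of the 17 genes of the 19S cap was 1773, 1924 and 1731 CPM in IL-4+CGRP replicates 1, 2 and 3, against 2014, 1962 and 1907 CPM in IL-4 replicates 1, 2 and 3. That of the 14 constitutive genes of the 20S core, without Psma8, was 913.8, 1168 and 892.0 CPM in IL-4+CGRP replicates 1, 2 and 3, against 1246, 1085 and 1078 CPM in IL-4 replicates 1, 2 and 3. Replicate 2 of IL-4+CGRP was within the IL-4 range for both sums, and the other 2 libraries were below it.

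Psme1 and Psme2 encode the subunits of the PA28 activator, a cap known for its induction by interferon gamma. Psme1 had 246.1, 284.3 and 234.0 CPM in IL-4+CGRP replicates 1, 2 and 3, against 313.0, 282.3 and 275.9 CPM in IL-4 replicates 1, 2 and 3. Psme2 had 151.4, 219.3 and 151.5 CPM in IL-4+CGRP replicates 1, 2 and 3, against 241.1, 209.3 and 203.3 CPM in IL-4 replicates 1, 2 and 3. For both, replicates 1 and 3 of IL-4+CGRP were below every IL-4 library, and replicate 2 was inside the IL-4 range. Their log2 fold changes were -0.19 ± 0.08 for Psme1 and -0.32 ± 0.18 for Psme2 (edgeR adjusted p of 0.26 and 0.47). Without IL-4+CGRP replicate 2, Psme1 passed at -0.27 ± 0.05 and Psme2 at -0.52 ± 0.07 (edgeR adjusted p of 0.0029 and 0.00039).

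Psme2 has the near-identical copy Psme2b, with 99.4% identity over 794 bases, between which reads may be split. The sum of both was 196.8, 267.8 and 204.8 CPM in IL-4+CGRP libraries, against 292.8, 252.1 and 251.1 CPM in IL-4 libraries, the same pattern as for Psme2. Psme4, the activator PA200, was one of the 3 genes above 0, with 131.8, 115.5 and 133.0 CPM in IL-4+CGRP replicates 1, 2 and 3, against 119.4, 112.5 and 126.6 CPM in IL-4 replicates 1, 2 and 3. Its groups overlapped, and its log2 fold change was 0.08 ± 0.07 (edgeR adjusted p = 0.61). Without IL-4+CGRP replicate 2 it did not pass, at 0.15 ± 0.05 (edgeR adjusted p = 0.080).

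The assembly chaperones, which help the core and the cap to form, had the lowest summed level of the roles, with 99.6, 117.6 and 100.3 CPM in IL-4+CGRP replicates 1, 2 and 3, against 120.4, 109.6 and 110.3 CPM in IL-4 replicates 1, 2 and 3. Psmg2 had 6.97, 7.99 and 6.85 CPM in IL-4+CGRP replicates 1, 2 and 3, against 8.15, 9.01 and 8.59 CPM in IL-4 replicates 1, 2 and 3. Its groups did not overlap, and its log2 fold change was -0.24 ± 0.11 (edgeR adjusted p = 0.32). Psmg2 did not pass without IL-4+CGRP replicate 2 either, at -0.31 ± 0.12 (edgeR adjusted p = 0.11). Psmd5 was at the other end, with 24.6, 24.6 and 25.1 CPM in IL-4+CGRP libraries, against 26.4, 22.9 and 24.6 CPM in IL-4 libraries. Its log2 fold change was 0.01 ± 0.08 (edgeR adjusted p = 0.97). Without IL-4+CGRP replicate 2 it was 0.01 ± 0.08 (edgeR adjusted p = 0.94).

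Levels between genes were compared per length, as CPM per kilobase of the gene length in the deposited table. The highest levels were those of the PA28 genes Psme1 and Psme2 and of the inducible subunits Psmb10 and Psmb8, while the inducible Psmb9 was at 92.0 ± 12.3 in IL-4+CGRP and 89.8 ± 8.09 in IL-4, below Psmb6. Psme1 was at 229 ± 23.6 in IL-4+CGRP and 261 ± 17.8 in IL-4 (SD, n = 3 each), and Psme2 at 181 ± 40.7 in IL-4+CGRP and 227 ± 21.1 in IL-4. Psmb10 was at 193 ± 31.4 in IL-4+CGRP and 211 ± 15.7 in IL-4, and Psmb8 at 196 ± 23.9 in IL-4+CGRP and 210 ± 14.1 in IL-4. Psme2, Psmb10 and Psmb8 lay within their SDs of each other in both groups. The 14 constitutive core genes ranged from 18.9 to 133 in IL-4+CGRP and from 24.7 to 154 in IL-4, with Psmb6 the highest. Per length, Psmb8 was 3.03 ± 0.25 times Psmb5 in IL-4+CGRP and 2.85 ± 0.18 times in IL-4, and Psmb10 was 4.21 ± 0.08 times Psmb7 in IL-4+CGRP and 3.71 ± 0.10 times in IL-4. Psmb9 was 0.69 ± 0.03 times Psmb6 in IL-4+CGRP and 0.59 ± 0.02 times in IL-4. The deposited length differs from that of the principal GENCODE transcript for 6 of the 48 genes, and none of these 6 is a catalytic or PA28 gene.

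**Figure D4:**
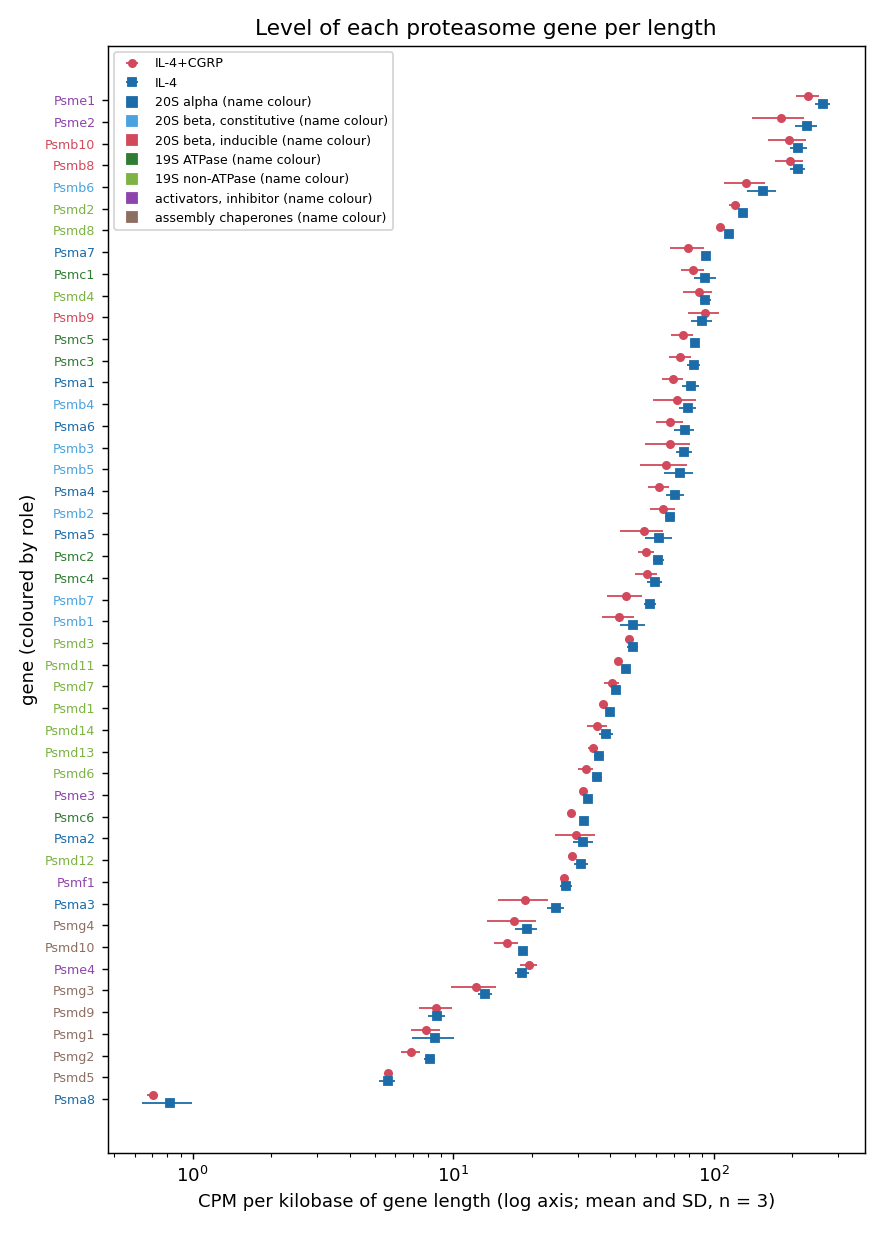
Level of each tested proteasome gene per kilobase of gene length (CPM per kilobase, log axis; mean and SD of 3 libraries), ordered by the IL-4 level with names coloured by role. Psme1, Psme2, Psmb10 and Psmb8 are at the top (181 to 261), and Psma8 at the bottom.

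Shorter proteasome genes tended to have lower fold changes, with exceptions. Psma3, with 2846 bases, had the lowest log2 fold change at -0.38, and Psmb2, with 859 bases, was at -0.08. Across the 47 genes, the correlation of log2 fold change with log2 gene length was 0.46 with all libraries, 0.58 without IL-4+CGRP replicate 2 and 0.26 with the length trend removed, against 0.03, 0.12 and -0.04 over all tested genes. These are descriptions across genes of the same libraries, which are not independent replicates. With the trend removed the median log2 fold change of the 47 genes was -0.13, and with all libraries uncorrected it was -0.14. The median over all tested genes also moved, to -0.029 with the trend removed from -0.004 uncorrected. The share of all tested genes below 0 was 57.7% with the trend removed and 50.8% uncorrected.

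**Figure D5:**
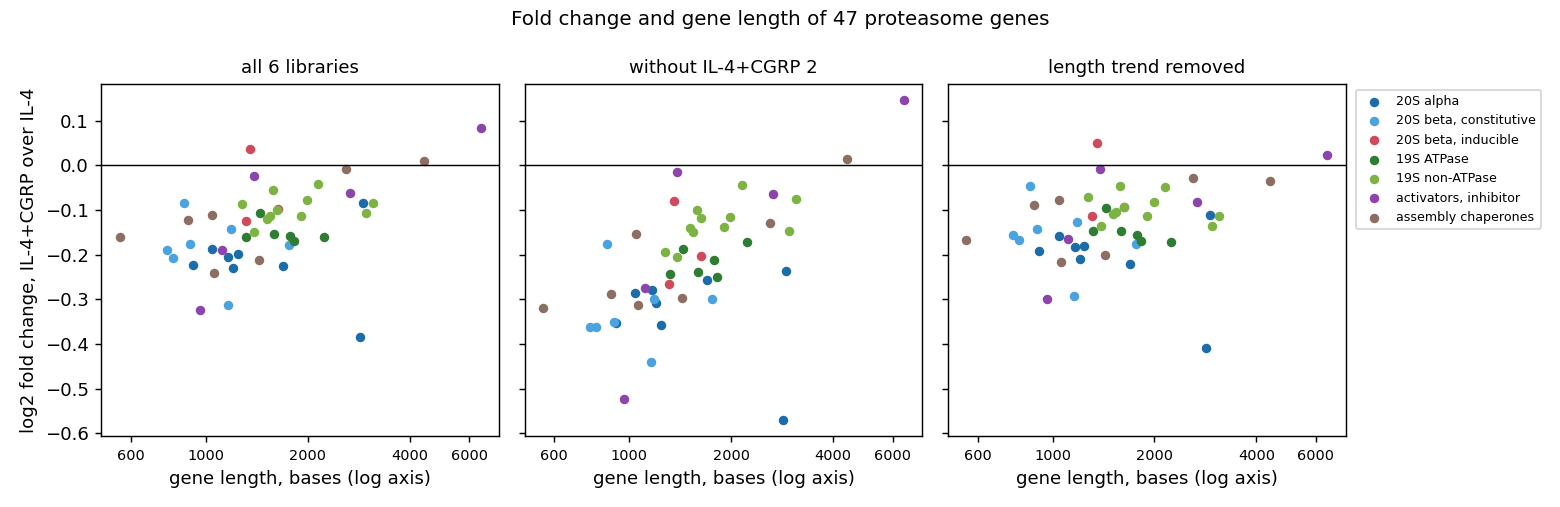
Log2 fold change (IL-4+CGRP over IL-4) of the 47 tested proteasome genes against gene length in bases on a log axis, coloured by role, for all 6 libraries, without IL-4+CGRP replicate 2 and with the length trend of each library removed. The correlation with log2 length is 0.46, 0.58 and 0.26 in that order.

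Genes that act with the proteasome were examined as a list of 52, of which 51 were tested and 1 was not analysed here. In the whole list 1 rose and 2 fell, beside 2.32% and 1.54% of all tested genes. The signalling factor Stat3 had 247.6, 228.3 and 245.7 CPM in IL-4+CGRP libraries and 197.7, 209.7 and 204.8 CPM in IL-4 libraries, and rose by 0.24 ± 0.05 on the log2 scale (edgeR adjusted p = 0.026). The endoplasmic reticulum chaperone Calr had 679.5, 671.4 and 683.3 CPM in IL-4+CGRP libraries and 845.6, 866.9 and 850.5 CPM in IL-4 libraries, and fell by 0.33 ± 0.04 (edgeR adjusted p = 0.00051). Pdia3, which works with Calr in loading MHC class I with peptide, had 376.0, 373.8 and 366.9 CPM in IL-4+CGRP libraries and 431.5, 432.2 and 444.8 CPM in IL-4 libraries, and fell by 0.23 ± 0.04 (edgeR adjusted p = 0.010). For these 3 genes the groups did not overlap, IL-4+CGRP replicate 2 included. The call of Calr held with any 1 library left out. That of Stat3 ended without IL-4+CGRP replicate 1 or 3 or any IL-4 library (edgeR adjusted p of 0.097 to 0.17), and that of Pdia3 without IL-4+CGRP replicate 1 or 3 or IL-4 replicate 2 or 3 (edgeR adjusted p of 0.057 to 0.099). With the replicate block the edgeR adjusted p was 0.13 for Stat3 and 0.085 for Pdia3.

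The 19 proteasome factors outside the naming rule, the 6 ubiquitin genes and the 8 genes of the p97 unfoldase had 0 calls. Over all tested genes the shares called were 2.32% higher and 1.54% lower, so few calls would fall in lists of this size. Among those with the smallest p values were Usp14, a deubiquitinase of the cap (-0.21 ± 0.06, edgeR adjusted p = 0.065; 0.038 without IL-4+CGRP replicate 2), Zfand5 (-0.19 ± 0.06, edgeR adjusted p = 0.16; 0.048 without it), the ubiquitin-activating Uba6 (-0.19 ± 0.08, edgeR adjusted p = 0.26), Ufd1 (-0.15 ± 0.07, edgeR adjusted p = 0.34) and Vcp (-0.09 ± 0.04, edgeR adjusted p = 0.36). Without IL-4+CGRP replicate 2, Uba6, Ufd1 and Vcp did not pass (edgeR adjusted p of 0.17, 0.081 and 0.096). Usp14 had 56.1, 52.2 and 56.1 CPM in IL-4+CGRP replicates 1, 2 and 3, against 63.5, 62.2 and 64.2 CPM in IL-4 libraries. Its groups did not overlap (9.92% of all genes in this direction), with replicate 2 the lowest. Usp14 and Zfand5 passed as lower with the length trend removed (edgeR adjusted p of 0.0031 and 0.043) and with no count filter (0.032 and 0.043). Uba6, Ufd1 and Vcp passed in neither. Some further genes were named for their known roles after their values were seen. Pomp, the chaperone of core assembly, had 100.3, 143.2 and 91.4 CPM in IL-4+CGRP replicates 1, 2 and 3, against 149.2, 129.2 and 124.2 CPM in IL-4 replicates 1, 2 and 3 (log2 fold change -0.27 ± 0.20, edgeR adjusted p = 0.60; without replicate 2, -0.48, adjusted p = 0.0031). Nfe2l1, the transcription factor of the proteasome recovery response, was at -0.01 ± 0.04 (edgeR adjusted p = 0.94). Irf1, a factor of interferon responses, was at 0.11 ± 0.05 (edgeR adjusted p = 0.30). The peptide transporter genes Tap1 and Tap2 were at 0.03 ± 0.05 and -0.01 ± 0.05 (edgeR adjusted p of 0.79 and 0.97). In peptide loading, Tapbp was at -0.11 ± 0.05 and Canx at -0.11 ± 0.04 (edgeR adjusted p of 0.28 and 0.23). Tapbpl was at 0.09 ± 0.06 and Erap1 at -0.01 ± 0.05 (edgeR adjusted p of 0.52 and 0.95). Without IL-4+CGRP replicate 2, Tapbp passed as lower and Canx did not (edgeR adjusted p of 0.011 and 0.13). With the length trend removed, Canx passed as lower and Tapbp did not (edgeR adjusted p of 0.018 and 0.071).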

How the data were processed

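Libraries were made from TRIzol-extracted RNA with a stranded mRNA kit, per the labels' protocols. Reads were processed on build GRCm39 with StringTie, HISAT2 and fastp, according to the submitters' processing notes. Not given in the sources used here are the annotation, the counting step and its strand setting; overlapping and antisense genes may therefore share reads. The authors deposited estimated counts per gene, not scaled to depth. Of these, 23.3% to 26.6% of values above 0 were not whole (tolerance 1e-06), and these were rounded before testing; the test had been planned for whole counts. The table has 0 unassigned sample columns and 525 genes with no name, kept under their identifiers.

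Genes were filtered with filterByExpr (13260 kept, 99.91% of counts), scaled with TMM factors (0.985 to 1.016) and tested with the edgeR 4.0.16 quasi-likelihood test (robust, two-sided, no covariates) under R 4.3.3; p-values were adjusted by Benjamini-Hochberg across every gene in the fit, at a threshold of 0.05. The biological coefficient of variation was 8.62%. CPM are counts over scaled totals. Ratios within libraries used a pseudocount of 0.5 counts for the log2 difference and an exact permutation test in scipy 1.17.1. Near-identical copies were searched with BLAST+ 2.17.0 in GENCODE transcripts (at least 95% identity over 200 bases, mean count of at least 10). Scripts were tested on simulated data, where genes changed 1.1-fold, 1.3-fold, 1.5-fold and 2-fold were recovered in 0%, 42%, 80% and 92% of cases. Libraries of the same group differed beyond counting error (chi-square over its degrees of freedom 3.09 or more). Alternatives were other scalings, filters, DESeq2 1.42.0, limma-voom 3.58.1, a non-robust fit, a replicate block, each library left out, and, added after seeing the data, the length trend removed and a pair of libraries left out. The genes and lists were chosen with earlier results of these data known. Genes given in full are those past the threshold, the catalytic subunits, Psme1 and Psme2, the highest and lowest log2 fold change in each role, and in each list the genes past the threshold or the 2 with the smallest p; of the genes this rule names, 1 is not reported here.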

Additional observations from a re-analysis of the deposited data

How the results depend on the processing

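Proteasome genes passing as lower numbered 0 with all libraries, 5 with no count filter, 1 by DESeq2, 6 with the length trend removed and 27 (with 1 higher, Psme4) without IL-4+CGRP replicate 2 and IL-4 replicate 1, and from 0 to 25 with 1 library left out, the 25 without IL-4+CGRP replicate 2. With the replicate block 0 passed and the median was -0.15. With 1 library left out the median ran from -0.24 (without IL-4+CGRP replicate 2) to -0.09 (without IL-4 replicate 1). Replicate numbers did not pair the samples: deviations from group means correlated at -0.188, -0.182 and 0.13 for numbers 1, 2 and 3, and 1 of 3 IL-4+CGRP libraries correlated best with its own number. All tested genes passing numbered 307 higher and 204 lower, against 584 and 434 with no filter, 176 and 86 with the block, 1066 and 1187 without the pair, 140 to 915 and 80 to 950 with 1 library left out, and 562 lower with the length trend removed. List genes passing numbered 3, against 5 with no filter, 1 with the block, 6 with the length trend removed, 11 without the pair and 1 to 7 with 1 library left out. The call of Calr held in every alternative; those of Stat3 and Pdia3 ended with the block and with several single libraries left out. The sign turned for genes near 0. With library totals alone it turned for Psmf1 (0.0043), Psmd9 (0.018), Tap2 (0.021) and Nfe2l1 (0.017), for Tap2 with upper quartile factors (0.0010) and a mean count of at least 50 (0.0013), for Psmd5 with the length trend removed (-0.035), and without the pair for Psmb9 (-0.0029) and Tap1 (-0.0040). With 1 library or the pair left out, log2 fold changes ran from -0.129 to 0.058 for Psmd9, -0.241 to 0.018 for Psmg1, -0.059 to 0.012 for Psmf1, -0.041 to 0.066 for Psmd5, -0.079 to 0.112 for Psmb9, -0.0040 to 0.071 for Tap1, -0.044 to 0.011 for Tap2 and -0.027 to 0.00029 for Nfe2l1. The 3 ratios kept their sign in each alternative run. The causes were not tested.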
